A study of Mus musculus with 12 samples.

Results

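The comparison described here was between bone marrow-derived mast cells (BMMCs) labelled *Elk4* knockout (KO) and those labelled wild type (WT), both left unstimulated, or resting. It held 4 of the 12 RNA-seq libraries of the series, chosen by their genotype and treatment labels, with 2 libraries a group. BMMCs are obtained by keeping marrow cells for weeks in medium with IL-3 and SCF, which mast cell precursors need. The study took its marrow from young adult mice of both sexes on a C57BL/6N background, with littermate WT mice as controls, and checked the cells for CD117 and FcϵRI on their surface. The labels call the resting cells untreated and name no other allele or agent. The study's knockout was conventional, so every tissue of the animal carried it, and the marrow precursors of the BMMCs developed with it. The labels do not say whether both libraries of a group came from separate animals or cultures, so the p-values measure the spread between these libraries, which may be technical. Beside this comparison, values are given for the 2 resting libraries labelled heterozygous (HZ). The KO and WT libraries from cells loaded overnight with 0.5 µg/ml anti-DNP IgE and given 100 ng/ml DNP-HSA for 1 h, 2 of each, are called stimulated here.

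ELK4 is a ternary complex factor (TCF), an ETS-family protein that binds DNA together with the serum response factor SRF and is phosphorylated by MAP kinases. TCF and SRF are best known at the promoters of immediate-early genes, which many growth and antigen signals switch on within minutes. Mast cells carry the IgE receptor FcϵRI, store histamine and proteases in granules, and make lipid mediators, cytokines and chemokines.

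Values are CPM, the counts scaled to library size with TMM factors, and differences are log2 fold changes of KO against WT with their standard error (SE). P-values were computed by the quasi-likelihood test of edgeR and corrected across all 12208 tested genes (Benjamini-Hochberg). A gene was called higher or lower at an adjusted p below 0.05 and a change of at least 2-fold. Pairs of values are replicate 1 and replicate 2. Counts on genes totalled 29697958 and 31180461 in the WT libraries and 33994669 and 32248976 in the KO libraries, and replicates of either group differed by more than counting noise, with a variance 3.46 and 3.32 times that of counting. The mast cell markers were present in all 4 libraries. *Kit* had 4925 and 4978 CPM in WT and 4771 and 4714 CPM in KO, *Fcer1a* 3976 and 3909 CPM in WT and 4535 and 4713 CPM in KO and *Cpa3* 15802 and 15638 CPM in WT and 16667 and 17032 CPM in KO. Of 12 tested mast cell markers, *Hdc* alone was called, as lower, against 4.87% of all genes lower and 2.64% higher. With no fold threshold 6 of the 12 were higher and 4 lower, against 22.9% and 21.7% of all genes. In bulk RNA, fewer cells of a type and less RNA per cell cannot be told apart.

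The targeted gene gave no check of the labels. *Elk4* (NCBI Gene 13714) was represented by 2426 and 2740 reads in the WT libraries, 2613 and 2253 in the KO libraries and 3238 and 2837 in the HZ libraries, which is 73.2 and 78.3 CPM in WT and 69.7 and 63.5 CPM in KO, with 93.2 and 86.02 in HZ. Both KO values lay below both WT values, and the log2 fold change was -0.19 (SE 0.06, edgeR adjusted p = 0.00872). Both HZ values lay above both WT values, with a log2 fold change of HZ against WT of 0.24 (SE 0.06, edgeR adjusted p = 0.000484). Reads were summed over the gene, which does not tell a deleted exon from an intact one, so WT, HZ and KO stand for the labels throughout. The other TCF genes did not pass the test, with log2 fold changes of -0.11 (SE 0.08, edgeR adjusted p = 0.283) for *Elk1* and -0.15 (SE 0.08, edgeR adjusted p = 0.109) for *Elk3*. *Srf* itself had 100.9 and 101.02 CPM in WT and 99.3 and 108 CPM in KO. Of 6 tested genes for TCF, SRF and its MRTF partners, edgeR and DESeq2 called 0, and 2 had an unadjusted p below 0.05, both lower. *Elk4* alone passed the adjusted test, and the 6 genes' median log2 fold change was -0.11.

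Resting KO BMMCs had 322 genes higher and 595 lower than resting WT BMMCs, which were 2.64% and 4.87% of the genes tested. The median log2 fold change over all tested genes was 0.02. Most genes that passed the test changed by less than 2-fold: with no fold threshold 2795 genes (22.9%) were higher and 2646 (21.7%) lower. Among the called genes, 148 rose and 246 fell by over 4-fold. Just inside the fold threshold lay *Scnm1* at 1.0015 and *Kank3* at -1.0067 on the log2 scale, and just outside lay *Pdcd1lg2* at 0.9993 and *Gm14326* at -0.9990. HZ libraries are compared below only by value, since they share the WT or KO libraries of any contrast with them.

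**Figure D1:**
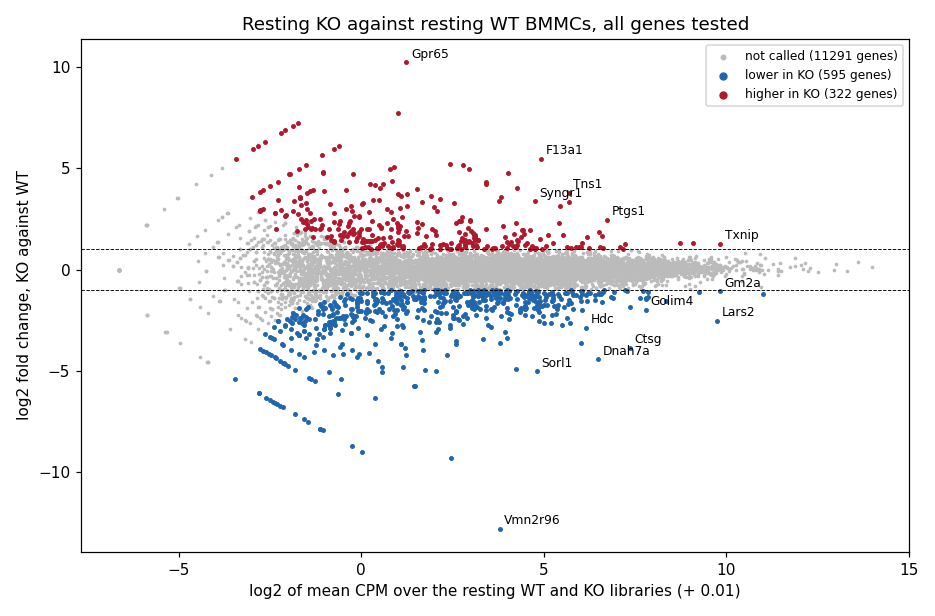
Each point is 1 of the 12208 tested genes, with the log2 of its mean CPM over the 4 resting WT and KO libraries on the x axis and its log2 fold change of KO against WT on the y axis. The 322 genes called higher lie above the upper dashed line and the 595 called lower below the lower one. Fitted values of genes with no counts in a group, such as Gpr65 and Vmn2r96, depend on the prior count.

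The stimulated libraries, which are separate libraries, gave the same contrast again. Of the 322 genes higher in resting KO, 227 (70.5%) were also called higher in stimulated KO, where 3.05% of all genes were. Of the 595 genes lower in resting KO, 419 (70.4%) were also called lower in stimulated KO, against 4.71% of all genes. The sign was the same in both states for 309 of the 322 and 568 of the 595. The median log2 fold change of the genes higher at rest was 1.91 at rest and 1.64 after stimulation, and that of the genes lower at rest was -1.80 and -1.49. Resting and stimulated libraries may share a culture, which the labels do not say.

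**Figure D2:**
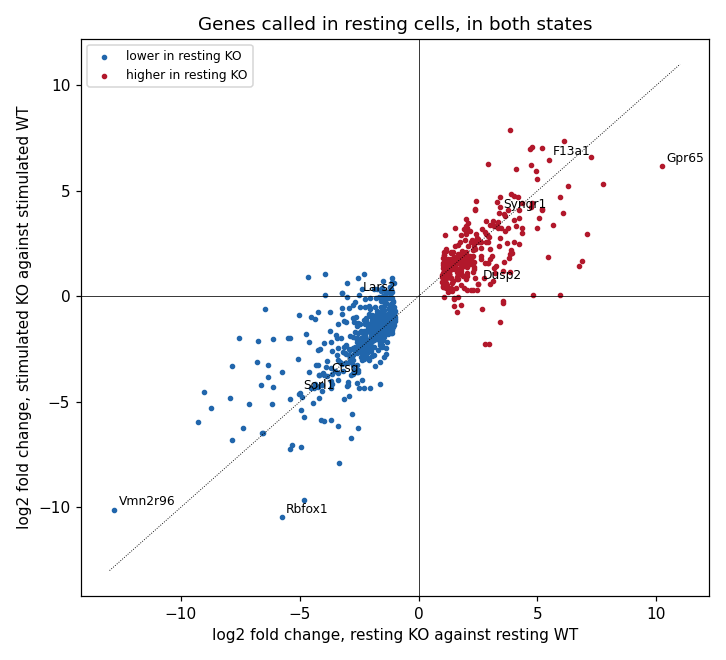
Each point is a gene called in resting cells, with its log2 fold change of KO against WT at rest on the x axis and after stimulation on the y axis. The dotted line marks equal values. Vmn2r96, Sorl1, Ctsg, Syngr1, F13a1 and Gpr65 lie on the same side of 0 in both states, and Lars2 has a log2 fold change of -2.53 at rest and 0.04 after stimulation.

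The largest differences were in genes with few or no counts in one genotype. *Vmn2r96*, a vomeronasal receptor gene, was counted 951 and 932 times in WT and 0 times in the KO and HZ libraries, and was at least 336-fold lower in KO when 3 counts per library stand for 0. *Capn11*, a calpain protease gene, went from 333 and 418 counts to 1 and 0, and the WT to KO ratio of summed counts, scaled to library size, was 805 with a 95% exact interval of 144 to 31822, which covers counting error only. *Gpr65*, a proton-sensing receptor gene, had 0 counts in both WT libraries and 181 and 162 counts in the KO libraries, and was at least 53.3-fold higher in KO. Its CPM in HZ was 0.144 and 0.485. *Scara5*, a scavenger receptor gene, went from 0 and 1 counts to 143 and 146, a KO to WT ratio of 269.7 with an interval of 48.03 to 10691. In HZ, *Scara5* had 3.83 and 4.18 CPM, as high as in KO, and *Capn11* was at 0. Olfactory and vomeronasal receptor genes belong to large families of similar sequence, so their reads may be shared with other copies. The fitted log2 fold changes of *Scara5* and *Capn11* rest on single counts, with *Scara5* at 9.99 without WT replicate 2 and 6.93 without WT replicate 1, and *Capn11* at -11.45 without KO replicate 1 and -8.49 without KO replicate 2.

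Among the other genes with large increases, *F13a1* encodes the A subunit of coagulation factor XIII. It had 0.996 and 1.66 CPM in WT and 59.1 and 59.2 CPM in KO, a log2 fold change of 5.47 (SE 0.12, edgeR adjusted p = 5e-36), and the HZ libraries had 56.5 and 56.7 CPM. *Nrgn*, for the calmodulin-binding protein neurogranin, had 0.513 and 0.229 CPM in WT and 14.1 and 12.8 CPM in KO. *Gcsam* rose from 0.483 and 0.0858 to 9.52 and 11.4 CPM, and *Sult1a1*, a phenol sulfotransferase, from 0.0604 and 0.143 to 3.36 and 3.33 CPM. *Olfr1033*, an olfactory receptor gene, had 0.815 and 1.46 CPM in WT and 32.8 and 30.3 CPM in KO and the highest values in HZ, 81.8 and 71.2 CPM. *Tmem176a* had 0.151 and 0.172 CPM in WT and 3.09 and 3.66 CPM in KO. The rule that chose these 6 genes required both KO libraries to lie above both WT libraries. In all 6 of these genes both HZ libraries also lay above WT. Single WT libraries moved some folds: the log2 fold change of *Gcsam* was 4.43 without WT replicate 2 and 6.87 without WT replicate 1, that of *Nrgn* 5.86 without WT replicate 1, and that of *Sult1a1* 5.71 without WT replicate 2.

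The large decreases included genes with intermediate HZ values. *Sorl1*, a sorting receptor of endosomes and the Golgi, had 51.6 and 57.5 CPM in WT and 1.52 and 1.80 CPM in KO, with 10.7 and 11.04 CPM in HZ and a log2 fold change of -5.04 (SE 0.13, edgeR adjusted p = 2.11e-33). *Dnah7a*, an axonemal dynein heavy chain gene, had 176 and 165 CPM in WT and 7.65 and 8.03 CPM in KO, with 17.7 and 21.3 CPM in HZ. *Lhfpl1* fell from 37.3 and 36.4 to 0.693 and 1.80 CPM. *Jaml*, a junctional adhesion molecule of leukocytes, fell from 6.16 and 6.89 to 0.240 and 0.169 CPM, with 0.576 and 1.21 in HZ. In these 4 genes every HZ library lay between the WT and the KO libraries. In CPM they lay nearer to KO, and on the log2 scale those of *Sorl1* lay nearer to WT, with a log2 fold change of -2.33 for HZ against WT and -2.71 for KO against HZ. *Olr1*, a scavenger receptor for oxidized LDL, and *Rbfox1*, a splicing regulator, had 5.37 and 5.29 and 5.64 and 5.20 CPM in WT and 0.133 and 0.0564 and 0.0533 and 0.141 CPM in KO. *Map9*, a microtubule-associated protein gene, had 11 and 0 counts in the KO libraries, so its log2 fold change of -4.80 became -10.10 without KO replicate 1 and -3.85 without KO replicate 2. The gene *LOC115490200* had 8.48 and 7.60 CPM in WT and 0.0800 and 0.423 CPM in KO. Single KO libraries moved these folds too: the log2 fold change was -6.58 without KO replicate 2 and -4.24 without KO replicate 1 for *LOC115490200*, -5.72 without KO replicate 2 for *Lhfpl1*, -6.57 without KO replicate 2 for *Rbfox1* and -6.47 without KO replicate 1 for *Olr1*.

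Genes with many counts gave the most precise differences. Of those higher in KO, the 8 with the highest CPM were *Txnip*, *Ly6e*, *Tpm3*, *Calca*, *Mrvi1*, *Ndrg1*, *Ptgs1* and *Psen2*. *Txnip*, which encodes a thioredoxin-binding arrestin that limits glucose uptake, had 536 and 542 CPM in WT and 1288 and 1298 CPM in KO but 536 and 537 CPM in HZ. Its relative *Arrdc4* rose as well, from 0.332 and 0.314 to 4.77 and 4.03 CPM, with 0.576 and 1.09 in HZ. For both genes HZ lay much closer to WT than to KO. *Ly6e*, a GPI-anchored surface protein gene, had 323 and 309 CPM in WT and 772 and 778 CPM in KO, with 648 and 684 in HZ, and the tropomyosin gene *Tpm3* 235 and 248 CPM in WT and 600.3 and 612 CPM in KO, with 515 and 523 in HZ. *Calca*, which encodes calcitonin and the neuropeptide CGRP, rose from 91.8 and 83.5 to 211 and 212 CPM. *Ndrg1* and the presenilin gene *Psen2* had log2 fold changes of 1.12 and 1.05. *Mrvi1* was at the threshold, with a log2 fold change of 1.003 that was 0.99 without KO replicate 1.

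The 8 genes lower in KO with the highest CPM were *LOC118568312*, *Gm2a*, *Lars2*, *Spcs3*, *Mki67*, *Top2a*, *Nin* and *Golim4*. *Gm2a*, the activator protein for lysosomal breakdown of the ganglioside GM2, had 1251 and 1235 CPM in WT and 581 and 593 CPM in KO and 865 and 888 in HZ. *Golim4*, a Golgi membrane protein gene, had 359 and 358 CPM in WT and 91.7 and 88.1 CPM in KO, a log2 fold change of -1.995 (SE 0.04, edgeR adjusted p = 3.52e-39). *Spcs3*, a subunit of the signal peptidase complex, fell from 848 and 831 to 382 and 389.5 CPM, and *Nin*, for the centrosomal protein ninein, from 317 and 323 to 151 and 144 CPM. *LOC118568312* and *Lars2*, the gene of mitochondrial leucyl-tRNA synthetase, varied more between replicates, with 3299.8 and 2435 and 1699 and 1224 CPM in WT and 1299.6 and 1139 and 260.2 and 247 CPM in KO. Without WT replicate 1 the log2 fold change of *LOC118568312* was -0.996, under the threshold.

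Genes of the late cell cycle were lower in resting KO as a group. Of 54 tested genes of a list for G2 and M phase, 37 fell, against 4.87% of all genes. At any fold 53 of the 54 passed as lower, where 21.7% of all genes did. With edgeR 0 were higher, also at an unadjusted p below 0.05 and with DESeq2. The median log2 fold change of the list was -1.33, beside 0.02 over all genes, and its range ran from -2.32 to 0.02. Both KO libraries lay below both WT libraries in 53 of the 54, as they did in 4140 of all 12208 tested genes. In the stimulated libraries 36 of the 54 were called lower, with a median of -1.25.

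Several of these genes encode parts of the machinery of mitosis. *Ube2c*, the ubiquitin-conjugating enzyme of the anaphase-promoting complex, had 52.00 and 53.7 CPM in WT and 10.7 and 10.5 CPM in KO. *Cdc20*, an activator of that complex, had 44.2 and 40.9 CPM in WT and 9.73 and 7.81 CPM in KO, and *Cenpf*, a kinetochore protein gene, 64.8 and 68.1 CPM in WT and 15.5 and 13.7 CPM in KO. *Ccnb2*, for cyclin B2, had 48.8 and 46.1 CPM in WT and 10.2 and 11.7 CPM in KO, a log2 fold change of -2.11 (SE 0.10, edgeR adjusted p = 7.52e-24). The HZ libraries had 11.5 and 13.3 CPM for *Ube2c*, 12.6 and 14.1 for *Cdc20* and 13.3 and 15.4 for *Ccnb2*. For these genes the HZ and KO libraries all stood well below WT. *Mki67*, the proliferation marker Ki-67, had 479.5 and 488 CPM in WT and 169 and 159 CPM in KO, and *Top2a*, for topoisomerase II alpha, 332 and 343 CPM in WT and 133 and 129 CPM in KO. The kinase gene *Cdk1* had a log2 fold change of -1.22 (SE 0.07, edgeR adjusted p = 5.52e-19), and the Aurora kinase genes *Aurka* and *Aurkb* of -1.64 and -1.24.

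The upstream stretches of 3 of these genes are shown because the genes fell together and the promoters of many late cell cycle genes are known for CCAAT boxes and the CHR element, with the core TTTGAA. The stretches are the 250 bases before the RefSeq start (GRCm38.p6, chr9:70421555-70421804 on the minus strand for *Ccnb2*, chr4:118437344-118437593 on the minus strand for *Cdc20* and chr2:164769679-164769928 on the plus strand for *Ube2c*), and capitals mark TTTGAA and CCAAT on either strand (TTCAAA and ATTGG where they lie on the other one). The occurrences can overlap, as CCAAT and ATTGG do once in *Ube2c*.
Ccnb2: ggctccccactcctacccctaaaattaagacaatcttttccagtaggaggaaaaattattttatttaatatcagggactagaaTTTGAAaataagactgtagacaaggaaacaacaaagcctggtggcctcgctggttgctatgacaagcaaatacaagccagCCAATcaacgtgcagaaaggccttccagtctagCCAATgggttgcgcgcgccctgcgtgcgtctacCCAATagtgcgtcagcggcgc
Cdc20: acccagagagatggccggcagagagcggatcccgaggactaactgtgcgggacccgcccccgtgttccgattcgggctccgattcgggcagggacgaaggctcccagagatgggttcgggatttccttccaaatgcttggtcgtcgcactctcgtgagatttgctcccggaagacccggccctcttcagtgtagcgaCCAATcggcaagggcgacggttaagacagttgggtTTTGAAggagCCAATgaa
Ube2c: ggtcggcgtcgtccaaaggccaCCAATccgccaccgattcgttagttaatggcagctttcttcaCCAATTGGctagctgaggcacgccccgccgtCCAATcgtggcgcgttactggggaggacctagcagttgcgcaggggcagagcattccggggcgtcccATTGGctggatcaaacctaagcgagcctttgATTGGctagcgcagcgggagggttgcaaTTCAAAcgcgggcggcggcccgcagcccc
RefSeq windows matched 31 of the 37 genes, with 34 windows. CCAAT was found in 27 of these windows (79.4%), against 33.8% of all 32851 windows of this length and 35.5% of those of tested genes. TTTGAA was in 13 (38.2%), against 16% of all and 11% of those of tested genes. In the windows of all lower genes CCAAT was in 40.6% and TTTGAA in 14.7%, and in those of all higher genes in 29.8% and 14.4%. Windows of G2 and M phase genes that were not called were not counted apart. These shares therefore do not set the called members off from their list. The ETS core CCGGAA, on either strand, was in 11 (32.4%), against 12% of all and 21.8% of those of tested genes. It was in 14.7% of the windows of all 595 lower genes and in 6.9% of those of all 322 higher genes. In *Cdc20* CCAAT and TTTGAA lay within 53 bases of the start. A match is a description of letters and not of binding.

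S phase genes had smaller differences. Of 43 tested, 1 fell past 2-fold, against 4.87% of all genes. It was *Rrm2*, for a subunit of ribonucleotide reductase, with 132 and 139 CPM in WT and 63.7 and 62.5 CPM in KO. At any fold 30 were lower and 4 higher, against 21.7% and 22.9% of all genes, and the list's median was -0.35. *Pcna*, the sliding clamp of DNA replication, had 280.1 and 277 CPM in WT and 254 and 247 CPM in KO, and the helicase gene *Mcm2* 183 and 191 CPM in WT and 165 and 173 CPM in KO. Both stayed under 2-fold, with log2 fold changes of -0.15 and -0.15.

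Of 25 tested G1 cyclins, CDKs, E2F and RB family genes, 3 fell, against 4.87% of all genes. At any fold 17 were lower and 2 higher, against 21.7% and 22.9% of all genes, and the list's median was -0.39. *Foxm1*, a transcription factor of the G2 programme, had 65.7 and 64.97 CPM in WT and 25.5 and 22.5 CPM in KO, *E2f7*, a repressor E2F, 22.1 and 22.4 CPM in WT and 10.8 and 10.5 CPM in KO, and *E2f2*, an activator E2F, 16.1 and 16.2 CPM in WT and 7.17 and 8.62 CPM in KO. Without KO replicate 1 the log2 fold change of *E2f2* was -0.90. Outside this list, *Ccna2*, cyclin A2, had 100.2 and 95.04 CPM in WT and 34.2 and 32.9 CPM in KO and a log2 fold change of -1.54 (SE 0.06, edgeR adjusted p = 1.21e-26). The G1 kinase genes had smaller differences. *Cdk6* had 385 and 409.6 CPM in WT and 264 and 266 CPM in KO, with 380.4 and 369.9 in HZ, and *Cdk2* 66.5 and 65.1 CPM in WT and 52.6 and 60.4 CPM in KO, and their log2 fold changes were -0.58 (SE 0.03, edgeR adjusted p = 7.38e-20) and -0.22 (SE 0.06, edgeR adjusted p = 0.00182). Of 7 tested CDK inhibitor genes, 2 fell, against 4.87% of all genes. *Cdkn2c*, for p18, fell from 29.3 and 30.5 to 12.6 and 12.2 CPM and *Cdkn3* from 6.91 and 7.43 to 2.13 and 1.94 CPM.

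Replication-dependent histone genes stood lower too, at low counts. Their summed level over 39 genes was 206 and 206 CPM in WT, 165 and 164 CPM in HZ and 118 and 111 CPM in KO. Of 14 tested, 6 fell, against 4.87% of all genes, with a median log2 fold change of -1.27. *H1f3*, a linker histone gene, had 1.36 and 1.51 CPM in WT and 0.320 and 0.254 CPM in KO. The count was 3 without WT replicate 1 2 without KO replicate 1 and 4 without KO replicate 2. *H3c11*, *H2bc6* and *H4c12* were among those that lost their call. *H3c11* had KO counts of 0 and 5, and its log2 fold change was -6.68 without KO replicate 2 and -1.47 without KO replicate 1. Most mRNAs of this class lack a poly(A) tail.

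**Figure D3:**
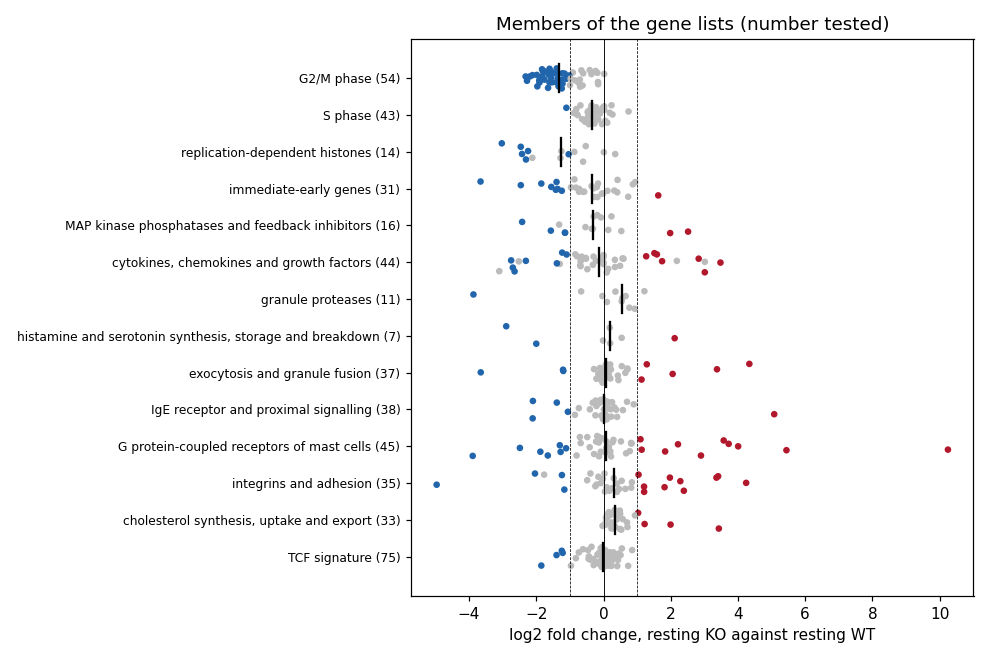
Each point is a tested member of the list named on the y axis, with its log2 fold change of resting KO against WT on the x axis. Red points were called higher, blue points lower and grey points were not called, black bars are list medians and dashed lines mark 2-fold. The G2 and M phase genes lie to the left of 0 with 1 exception, at 0.02.

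Several immediate-early genes were lower in resting KO than in WT, and most of these were lower still in HZ. Of 31 tested, 8 fell (*Fos*, *Egr2*, *Egr4*, *Nr4a1*, *Nr4a3*, *Btg2*, *Csrnp1* and *Ccn1*) and *Klf10* rose, against 4.87% of all genes lower and 2.64% higher, with a list median of -0.36. At any fold 20 were lower and 7 higher, against 21.7% and 22.9% of all genes. *Egr2*, a zinc finger transcription factor, had 265 and 251 CPM in WT and 73.6 and 69.2 CPM in KO, and HZ had 20.8 and 22.95 CPM. *Nr4a1*, an orphan nuclear receptor, had 325 and 324 CPM in WT and 121 and 126 CPM in KO, with 32.4 and 30.8 in HZ. *Egr4* fell from 12.5 and 10.1 to 1.01 and 0.761 CPM and *Fos*, a subunit of AP-1, from 15.7 and 14.3 to 6.75 and 5.89 CPM. In HZ, *Egr4* had 0.0288 and 0.273 CPM and *Fos* 2.42 and 2.73 CPM, so that in all 4 genes KO lay between HZ and WT without overlap. *Nr4a3* and *Csrnp1* had the same order, and *Btg2* was lowest in KO. *Ccn1* passed on low counts, 17 and 15 in WT against 2 and 4 in KO, and its log2 fold change of -2.46 was -3.05 without KO replicate 2. *Egr1* and *Egr3* stayed just under 2-fold, at log2 fold changes of -0.97 and -0.87. *Klf10*, a TGF-beta-inducible repressor, rose from 37.2 and 34.4 to 109 and 112 CPM.

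The stimulated contrast of these genes was smaller on the log2 scale. Their list median was 0.04 after stimulation, with 1 of 31 called higher and 1 lower. *Nr4a1* had a log2 fold change of -1.40 at rest and 0.08 after stimulation, and *Fos* -1.24 and -0.08. *Egr4* still had a large difference after stimulation, -2.58.

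The study lists genes of a TCF target signature from earlier chromatin immunoprecipitation, which was not chosen on these libraries. Of 75 tested, 4 fell (*Egr2*, *Fos*, *Nr4a1* and *Ptgs2*), beside 4.87% of all genes, and the median was 0.01. These 4 are known as genes that signals induce quickly. At any fold 16 were lower and 18 higher, shares near the 21.7% and 22.9% of all genes. Of 23 tested SRF cytoskeletal genes, 3 rose and 5 fell, against 2.64% and 4.87% of all genes. *Tns1*, for tensin, which links actin to integrins, rose from 7.12 and 6.89 to 95.02 and 97.2 CPM, with 34.8 and 31.8 in HZ, and *Tpm4*, a tropomyosin, fell from 12.1 and 11.7 to 2.05 and 1.63 CPM. *Vcl*, for vinculin, had 175 and 186 CPM in WT and 299.7 and 290.1 CPM in KO, a log2 fold change of 0.71 and no call. *Tpm2* passed with only 56 and 16 counts in KO, and its log2 fold change was 1.23 without KO replicate 1, where it lost its call, and 2.94 without KO replicate 2.

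Feedback inhibitors of the MAP kinase pathway went both ways. Of 16 tested, 4 fell and 2 rose, against 4.87% and 2.64% of all genes. *Dusp6*, an ERK phosphatase, had 107 and 106 CPM in WT and 47.2 and 48.9 CPM in KO, *Dusp5*, a nuclear ERK phosphatase, 54.4 and 57.5 CPM in WT and 19.6 and 18.2 CPM in KO, and *Errfi1*, an inhibitor of EGF receptor family kinases, 129 and 124 CPM in WT and 54.00 and 60.9 CPM in KO. *Spry4* fell from 1.12 and 1.11 to 0.240 and 0.169 CPM. *Dusp2* rose from 0.302 and 0.772 to 3.52 and 2.71 CPM, with a log2 fold change of 2.52 at rest, 0.59 after stimulation and 3.36 at rest without WT replicate 2. *Spry1* passed on low counts, 3 and 2 in WT against 8 and 14 in KO, and lost its call without replicate 2 of either group and in fits of the resting libraries alone.

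The upstream stretches of *Fos*, *Nr4a1* and *Dusp5* are shown as examples of the 12 immediate-early and feedback genes that fell. They are 250 bases before the RefSeq start (GRCm38.p6, plus strand, chr12:85473640-85473889 for *Fos*, chr15:101266596-101266845 for *Nr4a1* and chr19:53528895-53529144 for *Dusp5*). Capitals mark TGACG, the core of the cyclic AMP response element, and the CArG box that SRF binds, on either strand (TGACG reads CGTCA on the other one).
Fos: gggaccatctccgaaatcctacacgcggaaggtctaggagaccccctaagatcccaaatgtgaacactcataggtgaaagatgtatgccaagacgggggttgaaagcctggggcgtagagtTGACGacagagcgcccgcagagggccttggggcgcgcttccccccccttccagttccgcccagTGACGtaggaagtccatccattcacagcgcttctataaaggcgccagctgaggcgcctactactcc
Nr4a1: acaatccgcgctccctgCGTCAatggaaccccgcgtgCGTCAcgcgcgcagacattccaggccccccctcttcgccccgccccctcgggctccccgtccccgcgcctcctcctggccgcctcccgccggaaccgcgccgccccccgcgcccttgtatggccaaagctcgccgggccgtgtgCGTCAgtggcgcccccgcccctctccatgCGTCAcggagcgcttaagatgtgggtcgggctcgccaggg
Dusp5: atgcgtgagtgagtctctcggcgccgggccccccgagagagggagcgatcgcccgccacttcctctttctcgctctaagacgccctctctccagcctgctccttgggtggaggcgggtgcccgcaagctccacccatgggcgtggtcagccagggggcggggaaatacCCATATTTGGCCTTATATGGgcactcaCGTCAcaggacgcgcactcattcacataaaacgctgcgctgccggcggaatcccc
Windows were found for 11 of these 12 genes, 19 in all, several of which overlap within a gene. TGACG was in 15 (78.9%) and the CArG box in 5 (26.3%), against 17.8% and 1.47% of all windows of this length and 26.2% and 1.1% of those of tested genes. In the windows of all lower genes TGACG was in 20.2% and the CArG box in 3.1%, and in those of all higher genes in 14.1% and 1.88%. Windows of immediate-early and feedback genes that were not called were not counted apart. The shares therefore do not set the called members off from their lists. CCGGAA was in 2 (10.5%), against 12% of all and 21.8% of those of tested genes. The 5 CArG windows belong to 2 genes, *Egr2* and *Dusp5*, and the TGACG windows to 10. Only exact matches within 250 bases before the start were counted. SRF sites farther upstream or with a differing base would be missed, so a gene without a match, such as *Fos*, may still have such a site.

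The enzymes of histamine and serotonin synthesis that passed the test fell in resting KO. Of 7 tested genes for histamine and serotonin, 2 fell and 1 rose, against 4.87% and 2.64% of all genes. *Hdc*, the enzyme that makes histamine, had 131 and 122 CPM in WT and 16.9 and 17.1 CPM in KO, a log2 fold change of -2.89 (SE 0.05, edgeR adjusted p = 2.08e-40). Its HZ libraries had 114 and 104 CPM, nearer to WT. *Ddc*, which makes serotonin and dopamine from their precursors, had 107 and 105 CPM in WT and 27.3 and 25.6 CPM in KO, with 52.3 and 55.2 in HZ between the other groups. The serotonin transporter gene *Slc6a4* rose from 0.634 and 0.457 to 2.29 and 2.45 CPM. The vesicular amine transporter gene *Slc18a2* had 1497 and 1532 CPM in WT and 1709 and 1732 CPM in KO and a log2 fold change of 0.18.

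Among 11 tested granule protease genes, *Ctsg*, for cathepsin G, was the 1 call, against 4.87% of all genes lower and 2.64% higher. Without KO replicate 1 there were 2. It had 305 and 307 CPM in WT and 19.9 and 22.04 CPM in KO, with 41.8 and 43.9 in HZ, and a log2 fold change of -3.87 (SE 0.05, edgeR adjusted p = 1.27e-44). At any fold 7 of the other proteases passed as higher, against 22.9% of all genes, and the list median was 0.54. *Cma1*, for mast cell chymase, had 11246 and 10661 CPM in WT and 13896 and 14108 CPM in KO, and *Mcpt4* 19.3 and 18.2 CPM in WT and 26.8 and 28.3 CPM in KO, a log2 fold change of 0.56. *Tpsb2*, a tryptase gene, had 8221 and 7937 CPM in WT and 7729.6 and 8065 CPM in KO and did not pass. Of 23 tested genes for serglycin and heparin, 1 rose and 1 fell, against 2.64% and 4.87% of all genes. *Csgalnact1*, which starts chondroitin sulfate chains, rose from 0.845 and 0.486 to 3.39 and 3.13 CPM. *Sulf2*, which removes sulfate from heparan sulfate, fell from 30.9 and 27.6 to 2.91 and 2.68 CPM.

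**Figure D4:**
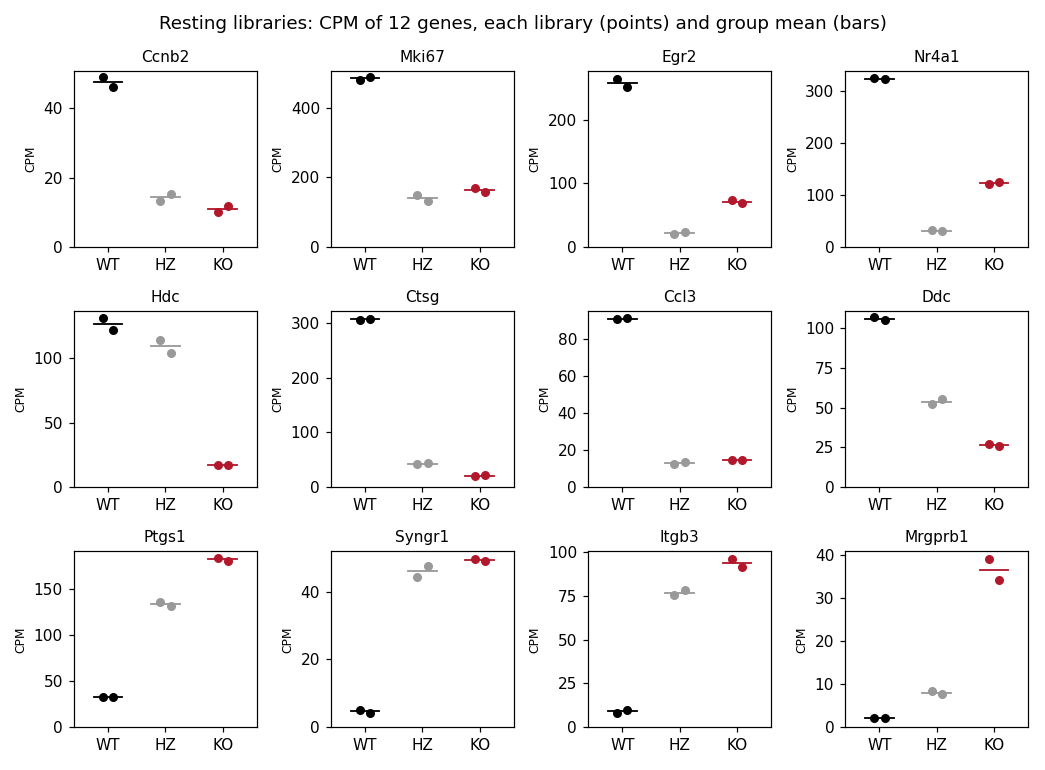
CPM on a linear axis from 0 for 12 genes in the 2 resting libraries of each genotype label, with each library as a point and the group mean as a bar. In all 12 genes the KO points lie apart from the WT points. HZ lies near WT for Hdc, between the groups for Ddc and Mrgprb1, beyond KO for Egr2 and Nr4a1, just below KO for Ccl3 and near KO for Syngr1.

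Genes of exocytosis changed at 8 of 37 tested members, with 5 higher and 3 lower, against 2.64% and 4.87% of all genes. *Syn2*, for synapsin II, a vesicle-coating phosphoprotein, had 0.936 and 1.06 CPM in WT and 20.7 and 19.8 CPM in KO. *Syngr1*, for the vesicle protein synaptogyrin 1, had 5.25 and 4.26 CPM in WT and 49.7 and 48.9 CPM in KO, with 44.3 and 47.5 in HZ and a log2 fold change of 3.38 (SE 0.10, edgeR adjusted p = 8.93e-31). *Exoc3l*, a relative of an exocyst subunit, had 5.52 and 5.86 CPM in WT and 13.4 and 11.6 CPM in KO. *Vamp5* rose from 3.08 and 3.26 to 7.73 and 7.75 CPM. *Stxbp6* rested on 0 and 10 counts in WT against 20 and 25, and its log2 fold change was 7.32 without WT replicate 2 and 1.10 without WT replicate 1, with the call lost in 3 of the 4 fits that left out 1 library. *Cadps2*, a priming factor of dense-core vesicles, fell from 27.8 and 23.95 to 2.27 and 1.83 CPM, *Sytl2*, a Rab27 effector, from 128 and 129 to 56.4 and 54.96 and the calcium sensor gene *Syt9* from 17.8 and 18.6 to 8.69 and 7.13. The list median was 0.07.

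The IgE receptor genes themselves differed little. *Fcer1a* had a log2 fold change of 0.23, *Ms4a2*, its beta chain, 0.09 and *Fcer1g*, its gamma chain, 0.25. Of 38 tested genes of the receptor and its proximal signalling, 4 fell and 1 rose, against 4.87% and 2.64% of all genes. *Pik3ap1*, an adaptor for PI3 kinase, had 33.1 and 32.6 CPM in WT and 9.09 and 6.17 CPM in KO, and *Skap1*, an adaptor of *Src* family kinases, 26.4 and 25.01 CPM in WT and 5.95 and 5.98 CPM in KO, with 15.4 and 14.98 in HZ. *Malt1* and *Card9*, which signal to NF-kappaB, fell from 203 and 219 to 102 and 100.9 and from 37.3 and 37.4 to 14.6 and 13.9 CPM. The kinases at the receptor, *Lyn* and *Syk*, did not pass, with log2 fold changes of -0.0014 (SE 0.04, edgeR adjusted p = 0.982) and -0.07 (SE 0.05, edgeR adjusted p = 0.267).

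The chemokine genes *Ccl3* and *Ccl4* were lower at rest. *Ccl3* had 90.6 and 91.01 CPM in WT and 14.5 and 14.5 CPM in KO, with 12.5 and 13.6 in HZ and a log2 fold change of -2.65 (SE 0.04, edgeR adjusted p = 2.57e-42), and *Ccl4* 78.2 and 80.5 CPM in WT and 11.7 and 11.9 CPM in KO, with 8.21 and 11.6 in HZ. Of 44 tested cytokine, chemokine and growth factor genes, 7 fell and 7 rose, against 4.87% and 2.64% of all genes. *Lif*, *Osm* and *Tnfsf8*, all secreted or membrane-bound cytokines, fell, with log2 fold changes of -1.39, -1.10 and -1.23. *Tnfsf4*, for OX40 ligand, fell from 11.95 and 10.9 to 2.77 and 1.80 CPM and *Il1a* from 1.06 and 0.943 to 0.160 and 0.141 CPM. The interleukin 1 genes went apart, since *Il1b* rose from 0.543 and 0.314 to 3.25 and 2.85 CPM. *Hgf*, *Vegfc* and *Ccl9* rose as well, with log2 fold changes of 1.74, 1.59 and 1.51. *Nrn1*, for the secreted protein neuritin, had 0.845 and 0.629 CPM in WT and 7.79 and 8.68 CPM in KO. *Ccl17* passed on low counts, 0 and 5 in WT against 22 and 23 in KO, and lost its call in 1 of the 4 fits without a library, with log2 fold changes from 2.08 to 7.32 over the fits without 1 WT library.

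The cytokine genes *Il6*, *Il13* and *Tnf* differed by under 2-fold at rest. *Il6* had 56.5 and 60.3 CPM in WT and 40.1 and 41.1 CPM in KO, *Il13* 19.5 and 22.8 CPM in WT and 13.01 and 13.4 CPM in KO and *Tnf* 6.37 and 6.75 CPM in WT and 4.27 and 5.16 CPM in KO, and their log2 fold changes were -0.53 (SE 0.04, edgeR adjusted p = 2.07e-16), -0.68 (SE 0.06, edgeR adjusted p = 1.93e-12) and -0.48 (SE 0.09, edgeR adjusted p = 1.7e-05). All 3 had their lowest values in HZ, 29.1 and 30.7, 7.92 and 9.46 and 1.99 and 2.94 CPM.

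Receptors coupled to G proteins changed in both directions, with 10 higher and 7 lower of 45 tested, against 2.64% and 4.87% of all genes. *Mrgprb1* and *Mrgprx2*, Mas-related receptors of which mast cells carry several, had 2.29 and 2.26 CPM in WT and 39.1 and 34.1 CPM in KO and 2.14 and 2.26 CPM in WT and 25.1 and 27.5 CPM in KO. The HZ values for *Mrgprb1* were 8.55 and 7.64, between the groups. These receptors are close relatives, so reads shared between them could be split by the counting. *P2ry10*, a lysophospholipid receptor, rose from 0.905 and 1.09 to 7.57 and 7.36 CPM, *Mc1r*, the melanocortin receptor, from 0.121 and 0.429 to 3.68 and 3.75, and *Adgrg1* from 33.4 and 30.6 to 68.8 and 68.3. The log2 fold change of *Mc1r* was 3.10 without WT replicate 1 and 4.90 without WT replicate 2. *Ccr3*, *Cysltr2* and *Ednra* also rose, at KO levels of 1.17 and 1.04, 3.76 and 2.23 and 2.85 and 1.69 CPM.

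Receptors for complement, prostacyclin and leukotriene B4 fell. *C5ar1* had 9.18 and 7.46 CPM in WT and 3.17 and 3.58 CPM in KO, *Ptgir*, for the prostacyclin receptor, 13.6 and 12.2 CPM in WT and 3.63 and 3.38 CPM in KO, and *Ltb4r1* 22.8 and 21.8 CPM in WT and 7.95 and 6.17 CPM in KO. *Ltb4r2*, its neighbour in the genome, had a log2 fold change of -1.11, and reads of overlapping neighbours cannot be told apart without strand. *Calcrl*, the receptor subunit for CGRP and adrenomedullin, fell from 3.59 and 5.03 to 0.373 and 0.197 CPM while *Calca* rose. *Adgrg6*, an adhesion-type receptor, and *Cx3cr1*, the fractalkine receptor, fell, with log2 fold changes of -2.49 and -1.28.

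Of 29 tested growth factor and cytokine receptors, 7 rose and 2 fell, against 2.64% and 4.87% of all genes. *Il9r*, the receptor of a mast cell growth factor, had 82.9 and 86.2 CPM in WT and 16.4 and 15.4 CPM in KO, with 39.9 and 41.8 in HZ, and *Il12rb1* 16.2 and 15.7 CPM in WT and 6.77 and 6.99 CPM in KO. *Tie1* and *Tek*, the angiopoietin receptor pair, rose from 0.604 and 0.515 to 6.75 and 7.16 and from 8.63 and 8.95 to 33.1 and 34.5 CPM. *Nrp1*, a co-receptor for VEGF, rose from 3.59 and 4.89 to 16.6 and 17.5 CPM but had 4.87 and 4.70 in HZ, where it overlapped WT. *Tnfrsf1b*, TNF receptor 2, rose from 11.4 and 8.75 to 33.3 and 33.9 CPM. *Eng*, *Tnfrsf12a* and *Ngfr* rose too, with log2 fold changes of 1.74, 1.72 and 1.32.

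Among integrins and adhesion genes more rose than fell, with 10 of 35 tested higher and 4 lower, against 2.64% and 4.87% of all genes, and a median of 0.30. *Itgb3*, integrin beta 3, had 8.12 and 10.1 CPM in WT and 95.95 and 91.4 CPM in KO, with 75.4 and 78.1 in HZ and a log2 fold change of 3.36 (SE 0.08, edgeR adjusted p = 2.07e-35). Its partner *Itga2b* had 1739 and 1696 CPM in WT and 1701 and 1694 CPM in KO and did not pass. The tetraspanin genes *Tspan8*, *Tspan32* and *Cd81* rose from 1.30 and 0.858 to 22.1 and 18.7, from 2.51 and 2.23 to 25.3 and 25.1 and from 7.36 and 5.52 to 32.4 and 30.3 CPM. *Podxl*, a sialomucin, had 1.87 and 2.20 CPM in WT and 10.7 and 10.7 CPM in KO, and *Icam2*, a ligand of leukocyte integrins, 9.30 and 10.7 CPM in WT and 38.9 and 39.7 CPM in KO. *Itgax*, integrin alpha X, fell from 7.58 and 5.603 to 1.84 and 1.35 CPM, and *Emb* and *L1cam* fell with log2 fold changes of -1.24 and -1.16. *Cadm1*, which mediates mast cell adhesion, had 37.6 and 41.7 CPM in WT and 64.2 and 60.1 CPM in KO, a log2 fold change of 0.65 (SE 0.06, edgeR adjusted p = 4.27e-13) under 2-fold, and 106 and 109 in HZ.

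**Figure D5:**
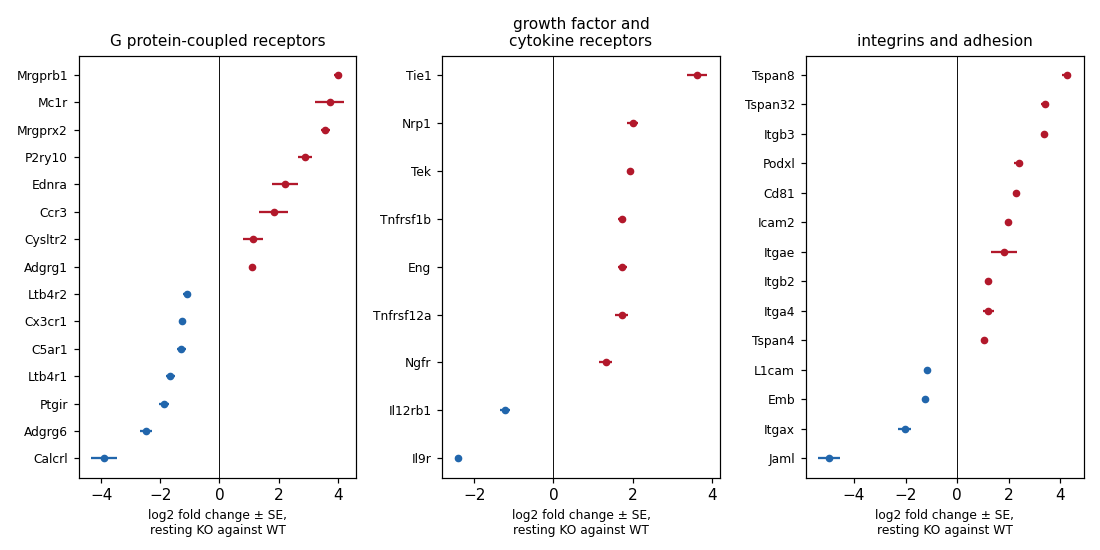
Called members of 3 receptor and adhesion lists, with the log2 fold change of resting KO against WT on the x axis and its standard error as a bar. Members with 0 counts in both WT libraries, such as Gpr65, are left out. Tspan8 lies at 4.24, Mrgprb1 at 4.01 and Jaml at -4.96.

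The cyclooxygenase genes moved apart. *Ptgs1*, the constitutive enzyme COX-1, had 33.1 and 33.2 CPM in WT and 183 and 180.3 CPM in KO, with 136 and 131 in HZ and a log2 fold change of 2.45 (SE 0.05, edgeR adjusted p = 1.64e-38). *Ptgs2*, the inducible enzyme COX-2, had 1.99 and 3.94 CPM in WT and 1.68 and 0.874 CPM in KO, and its log2 fold change of -1.21 was -0.62 without WT replicate 2, with the call lost without replicate 2 of either group. These were the 2 calls among 12 tested genes of prostaglandin and leukotriene synthesis, against 2.64% of all genes higher and 4.87% lower.

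Cholesterol genes rose together by small amounts. Of 33 tested, 4 rose past 2-fold, against 2.64% of all genes, and at any fold 28 rose, against 22.9%. With edgeR 0 fell, also at an unadjusted p below 0.05, and with DESeq2 0 fell past 2-fold. The median was 0.34, and 0.15 after stimulation. *Scd1*, a fatty acid desaturase, had 14.2 and 12.5 CPM in WT and 32.6 and 29.7 CPM in KO, and the cholesterol exporter genes *Abca1* and *Abcg1* 0.785 and 0.858 CPM in WT and 2.69 and 3.89 CPM in KO and 18.8 and 21.9 CPM in WT and 40.4 and 42.7 CPM in KO. *Abcg1* lost its call without WT replicate 1 or KO replicate 2. Each of these 3 had its highest values in HZ, 67.3 and 70.4 CPM for *Scd1*. Of 29 tested glycolysis and hypoxia genes, 4 rose, against 2.64% of all genes. These were *Txnip*, *Arrdc4*, *Ndrg1* and *Aldoc*, which rose from 8.15 and 10.005 to 20.99 and 19.2 CPM. At any fold 18 were higher and 4 lower, against 22.9% and 21.7% of all genes.

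Of 48 tested lysosomal genes, 2 rose and 3 fell, shares near the 2.64% and 4.87% of all genes, and 4 rose without WT replicate 1. *Galc*, the enzyme that breaks down galactosylceramide, had 0.151 and 0.800 CPM in WT and 14.9 and 15.2 CPM in KO, with 2.10 and 1.94 in HZ, and its WT libraries differed, so its log2 fold change of 4.95 was 4.22 without WT replicate 1 and 6.604 without WT replicate 2. Legumain, an asparaginyl protease encoded by *Lgmn*, rose from 0.211 and 0.114 to 2.75 and 2.65 CPM. *Arsb*, arylsulfatase B, fell from 10.3 and 9.29 to 2.05 and 1.66 CPM and *Atp6v0d2*, a proton pump subunit, from 38.2 and 33.4 to 9.17 and 9.19 CPM. *Mt2*, the metallothionein that binds zinc, rose from 13.97 and 14.8 to 72.2 and 70.8 CPM, 1 of 10 tested in its list. Of 38 tested interferon-stimulated genes, 3 rose (*Gbp6*, *Trim30d* and *Ly6e*) and 2 fell (*Tgtp1* and *Rsad2*), against 2.64% and 4.87% of all genes. At any fold 9 were higher and 9 lower, shares near the 22.9% and 21.7% of all genes. *Gbp6* had 9.48 and 10.1 CPM in WT and 22.9 and 23.8 CPM in KO, and *Tgtp1* 2.96 and 3.40 CPM in WT and 0.293 and 0.310 CPM in KO. Of 7 sirtuin and 17 MHC and antigen presentation genes tested, edgeR and DESeq2 called 0. At an unadjusted p below 0.05 with edgeR, 1 of the sirtuins was higher, and 6 of the MHC genes were higher and 2 lower.

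Among 34 tested transcription factors of the mast cell lineage, 6 rose and 3 fell, against 2.64% and 4.87% of all genes. The central factors stayed under 2-fold, with *Gata2* at 1575 and 1509.5 CPM in WT and 1237 and 1255 CPM in KO, *Mitf* at 152 and 156 CPM in WT and 140.0 and 143 CPM in KO and *Gata1* at 106 and 107 CPM in WT and 125 and 125 CPM in KO. *Id3*, an inhibitor of E proteins, had 5.67 and 5.09 CPM in WT and 22.2 and 26.2 CPM in KO, and *Tcf4*, an E protein, rose from 0.181 and 0.114 to 2.96 and 2.73 CPM. *Gfi1b* rose, with a log2 fold change of 1.06. *Cebpa*, which marks granulocyte and basophil precursors, went from 3 and 1 counts to 35 and 31, and the KO to WT ratio was 15.4 with an interval of 5.74 to 58.2. Its fitted log2 fold change was 3.27 without WT replicate 2 and 4.81 without WT replicate 1. *Id1* rose on 35 and 21 counts in KO and lost its call in 3 of the 4 fits without a library, with log2 fold changes from 1.72 to 3.03. *Runx2*, *Meis2* and *Notch1* fell from 9.02 and 10.2 to 1.95 and 1.66, from 23.2 and 22.5 to 8.61 and 9.89 and from 35.1 and 33.5 to 16.2 and 16.1 CPM. Of 14 tested ETS factors outside the TCF group, 1 fell, against 4.87% of all genes. This was *Ets1*, with 13.8 and 11.7 CPM in WT and 4.67 and 3.72 CPM in KO and 13.9 and 13.6 in HZ.

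Markers of neutrophils, lymphocytes and fibroblasts were at or near 0 in both groups. Summed over the genes in the table, 8 neutrophil markers reached 0.486 to 0.755 CPM in WT and 0.480 to 0.507 CPM in KO, with S100a8, Ngp, Ltf and Mpo at 0 counts in all 4 libraries. The 5 B cell markers reached at most 0.366 CPM, the 7 T and NK cell markers at most 0.800 CPM and the 5 fibroblast markers at most 0.310 CPM in any of the 4 libraries. The 15 macrophage and monocyte markers summed to 49.8 to 52.8 CPM in WT and 57.5 to 62.1 CPM in KO. Of 8 tested, *Lyz2* rose from 3.95 and 4.57 to 9.65 and 12.2 CPM and *Mertk* fell from 0.966 and 1.29 to 0.480 and 0.169 CPM. *Mertk* lost its call without WT replicate 2 or KO replicate 2 and its log2 fold change was -2.71 without KO replicate 1 and -1.22 without KO replicate 2. Mrc1 and Marco were at 0. The 6 basophil markers summed to 668 and 672 CPM in WT and 528 and 540.0 CPM in KO, and *Cebpa* alone among them was called, as higher. *Cd200r3* made up most of this sum, with 591 and 595 CPM in WT and 461 and 464 CPM in KO. *Il3ra* and *Itga2* also stood lower in KO. *Mcpt8* and *Prss34* stood higher, with 4.68 and 5.57 CPM in WT and 7.71 and 8.51 CPM in KO for *Mcpt8*, so the sum does not describe all 6. The 5 eosinophil markers summed to 5.75 to 6.01 CPM in WT and 3.73 to 4.62 CPM in KO, with *Ccr3* higher and *Siglecf* lower. The 7 dendritic cell markers summed to 8.38 to 10.4 CPM in WT and 4.68 to 5.39 CPM in KO, with *Itgax* lower and Flt3, Clec9a and Cd209a at 0.

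The 7 megakaryocyte markers summed to 2556 to 2589 CPM in WT and 2621 to 2636 CPM in KO with 0 of 6 tested genes called by edgeR or DESeq2 and 3 higher and 1 lower at an unadjusted p below 0.05. *Itga2b*, counted among them, is also a gene of mast cells. The 7 endothelial markers summed to 953 to 964 CPM in WT and 1006 to 1007 CPM in KO, with *Tek* and *Tie1* higher and *Pecam1* at 444 and 438 CPM in WT and 447 and 452 CPM in KO. The 7 erythroid markers summed to 3.60 to 4.26 CPM in WT and 4.64 to 4.65 CPM in KO, with Hbb-bs at 0 counts. The globin gene *Hbb-bt* rose from 0 and 8 counts to 76 and 87, with log2 fold changes of 9.17 without WT replicate 2 and 3.27 without WT replicate 1. The part of other cells in the called genes was not tested.

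Called genes lay next to each other more often than tested genes in general. In RefSeq gene order (GRCm38.p6, used for order only), 240 of 905 placed called genes (26.5%) had a called gene as the next tested gene on either side, against 1721 of 12163 tested genes (14.1%), which is a description without a test. Runs of 3 included *Tmem176a* with *Tmem176b* and *Gimap3*, all higher, and *Cd81* and *Tspan32*, higher, beside *Igf2*, lower. In this order the *Ltb4r1*, *Ltb4r2* and *Cideb* genes fell together. Around *Elk4*, of the 20 tested genes on each side, *Dyrk3* rose, with a log2 fold change of 1.16 (SE 0.10, edgeR adjusted p = 1.47e-13), and *Atp2b4* and *Btg2* fell, with -1.08 and -1.55. Of these 40 neighbours 1 was called higher and 2 lower, shares near the 2.64% and 4.87% of all genes. The median of the 40 was -0.02.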

How the data were processed

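RNA-seq was done on 12 libraries of BMMCs labelled WT, HZ or KO for *Elk4*, resting or stimulated, 2 a group. The authors deposited raw counts per gene and the FPKM values derived from them. The submitters' processing notes name fastp, HISAT2, HTSeq and GRCm39, with versions not given in the sources used here. Strand use in the counting is not given in the sources used here either, so reads of overlapping genes cannot be told apart.

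The counts were analysed with edgeR 4.0.16 in R 4.3.3. Genes were kept by filterByExpr over the 6 groups (12208 of 16234), libraries were scaled by TMM, and the quasi-likelihood test was run in 1 model of all 12 libraries, so the 6 groups share the estimate of the spread. The SE is the log2 fold change divided by the square root of its F statistic. Fitted folds use a prior count of 0.125. Where both libraries of a group had 0 counts, 3 counts per library stood in for 0. Exact intervals (95%) and these bounds cover counting error only, since reads are not independent molecules.

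The comparison, the gene lists and the motifs were chosen with earlier results of these data known. Named genes were *Elk4* and its relatives, the genes that the study measured by qPCR in BMMCs, in each direction the 10 with the largest changes (groups without overlap, at least 100 counts on average where the gene was higher), the 8 called genes with the highest CPM, and up to 4 called members of each list a direction. List members and neighbours named beyond these were chosen after their values were seen.

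Alternatives were DESeq2 1.42.0, other scalings, filters, thresholds, sets of libraries and prior counts, a replicate term, leaving out each library, and limma 3.58.1 on log2(FPKM + 1) or log2(FPKM + 0.1). The edgeR procedure was tested on simulated counts. Promoter windows and gene order came from RefSeq tables of GRCm38.p6, another build than that of the counts, so no gene coordinates are joined to the counts. Sex-linked genes were not analysed here, and some genes that the naming rule selects are not reported here.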

Additional observations from a re-analysis of the deposited data

Results flagged for a closer look

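Of the genes called in resting cells and named above, 18 had a difference between KO and WT that itself differed between resting and stimulated libraries, by edgeR's test of the interaction (adjusted p below 0.05) and by at least 2-fold. The interaction is the stimulated minus the resting log2 fold change. Of all 12208 genes 86 passed this rule, as did 10 of the 322 genes higher and 36 of the 595 lower at rest. The genes were chosen for their resting difference, and the interaction subtracts that same difference. This choice favours a smaller difference after stimulation, so the shared direction is not a result by itself.

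Genes for the chemokines CCL3 and CCL4, the cytokine LIF and the histamine enzyme had smaller decreases after stimulation on the log2 scale only. In CPM the gap between WT and KO was wider after stimulation for all of them. Stimulated libraries had 3156 and 3263 CPM of *Ccl3* in WT and 1651 and 1646 CPM in KO. For *Hdc* they had 1116 and 1106 CPM in WT and 316 and 290 CPM in KO. For *Ccl3* the log2 fold change was -2.65 at rest and -0.96 after stimulation, an interaction of 1.68 (SE 0.05, edgeR adjusted p = 2.35e-30). For *Ccl4* the values were -2.75 and -1.02, an interaction of 1.73 (SE 0.07, edgeR adjusted p = 1.94e-25). For *Hdc* they were -2.89 and -1.87, an interaction of 1.02 (SE 0.06, edgeR adjusted p = 1.45e-17). For *Lif* they were -1.39 and -0.33, an interaction of 1.06 (SE 0.03, edgeR adjusted p = 1.46e-30).

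Of the immediate-early genes that fell at rest, *Nr4a1* had an interaction of 1.47 (SE 0.03, edgeR adjusted p = 8.09e-36), *Csrnp1* of 1.49 (SE 0.04, edgeR adjusted p = 5.38e-31), *Nr4a3* of 1.35 (SE 0.06, edgeR adjusted p = 4.8e-24), *Egr2* of 1.34 (SE 0.04, edgeR adjusted p = 4.09e-30), *Fos* of 1.16 (SE 0.08, edgeR adjusted p = 1.06e-15), *Egr4* of 1.08 (SE 0.21, edgeR adjusted p = 0.000253) and *Ccn1* of 1.94 (SE 0.58, edgeR adjusted p = 0.0227). The phosphatase gene *Dusp5* had an interaction of 1.07 (SE 0.08, edgeR adjusted p = 1.01e-14). *Dusp2* was the 1 gene of the 18 whose increase became smaller, with an interaction of -1.92 (SE 0.39, edgeR adjusted p = 0.000502). *Ptgs2* had log2 fold changes of -1.21 at rest and 0.44 after stimulation, an interaction of 1.66 (SE 0.22, edgeR adjusted p = 1.19e-07).

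*Lars2* had 1699 and 1224 CPM in WT and 260.2 and 247 CPM in KO at rest and 291 and 286 CPM in WT and 305 and 288 CPM in KO after stimulation, an interaction of 2.56 (SE 0.12, edgeR adjusted p = 5.73e-23). *LOC118568312* had 3299.8 and 2435 CPM in WT and 1299.6 and 1139 CPM in KO at rest and 1210.3 and 1204 CPM in WT and 1438 and 1368 CPM in KO after stimulation, an interaction of 1.45 (SE 0.12, edgeR adjusted p = 1.82e-13). The scavenger receptor gene *Olr1* had log2 fold changes of -5.74 and -3.61, an interaction of 2.13 (SE 0.42, edgeR adjusted p = 0.000304). *Siglecf*, an eosinophil marker, had WT counts of 38 and 20 and KO counts of 5 and 3 at rest, with an interaction of 2.35 (SE 0.76, edgeR adjusted p = 0.0398).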

How the results depend on the processing

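The counts of 322 genes higher and 595 lower in resting KO stayed within 1.5 times under DESeq2, DESeq2 size factors, library totals, no filter on low counts, fits of the 4 or 6 resting libraries, an adjusted p below 0.01 and a prior count of 2, with 261 to 319 genes higher and 518 to 607 lower. A minimum of 10 counts in each of the 4 libraries left 11140 genes and 213 higher. With no fold threshold 2795 were higher and 2646 lower, of which 1730 and 1720 were called alike in stimulated cells, and at 1.5-fold 605 and 954, of which 402 and 689. limma on log2(FPKM + 1) called 94 higher and 216 lower, with 77 and 136 alike in stimulated cells, and without a filter 95 and 217, with 76 and 136. On log2(FPKM + 0.1) it called 157 and 348, with 126 and 258. The cause was not tested. Leaving out 1 library gave 282 to 294 genes higher and 529 to 582 lower, with 201 to 205 and 386 to 401 alike in stimulated cells. The lone library of a group is then assumed to vary like the other groups.

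Replicate numbers showed no pairing between resting WT and resting KO, where the deviations of replicates 1 and 2 had a correlation of 0.0139 over 10500 genes. Pairing of resting with stimulated libraries was not examined. With the replicate number as a block, 316 genes were higher and 592 lower, and in the 4 resting libraries alone 296 and 589.

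Of 2534 values for 154 named genes under these settings, 2418 kept their direction and their side of the threshold, 116 kept their direction and lost the call, and 0 reversed. Genes of low counts such as *Stxbp6* and *H3c11* were among those that lost the call, and the part of depth was not tested.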
